A study of Homo sapiens with 9 samples.

Results

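Transcripts of the pregnancy-specific glycoproteins (PSG), a family of secreted proteins better known from the placenta, were followed in melanoma cells that carried wild-type WWOX, a mutant of WWOX or neither. The members were all probe sets annotated to PSG1, PSG2, PSG3, PSG4, PSG5, PSG6, PSG7, PSG9 or PSG11. There were 19 such probe sets among the 54613 of the arrays, and they covered 9 of 19775 genes with a probe set of their own. Of the 19, 16 carried 1 PSG gene and 3 carried a pair of PSG genes, and the 3 shared ones are reported apart. The family had been chosen because its level in WWOX cells was already known, so the values of the PSG probe sets in WWOX cells are a description without a test. The comparison of the mutant with the empty vector did not choose the members and was tested. Genes outside the family were tested gene by gene, but their lists were chosen with earlier results of these data known.

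RNA came from MDA-MB435S, an established line of metastatic melanoma, grown in DMEM with serum. Stable clones had been made with a lentiviral vector and selected with G418, so all cells that carried the vector shared that selection. Empty-vector cells (EV) carried no WWOX insert, WWOX cells carried the wild-type gene, and WFPA cells carried WWOX with a mutation in its first WW domain, the part of the protein that binds partner proteins. Each group was read on 3 Affymetrix U133 Plus 2.0 arrays. The lentiviral vector field of the labels conflicts with the array titles: it gives the wild-type protein for the EV arrays and no insert for the WWOX arrays, and the EV titles carry the addition wox+. The titles were used. The WWOX titles read wox5, and how many clones stand behind a group is not given in the sources used here. Nor do these say whether the 3 arrays of a group came from separate cultures, so p-values measure the spread between arrays, which may be technical. The WWOX transcript itself was read by 5 probe sets, of which 2 were called higher in both WWOX and WFPA cells than in EV cells, as the titles have it. At the one with the highest mean (223868_s_at), the EV arrays averaged a log2 intensity of 8.94, the WFPA arrays 10.24 and the WWOX arrays 10.66 (n = 3 arrays each). This was 1.72 higher in WWOX than in EV cells (standard error 0.174, limma adjusted p = 2.95e-04) and 1.30 higher in WFPA than in EV cells (standard error 0.174, limma adjusted p = 0.00285). At 221147_x_at the group means were 4.49, 7.64 and 8.18 in the same order. At the other 3 neither comparison was called: 210695_s_at was level (5.98, 5.98 and 6.11), 219077_s_at was highest in WFPA cells (3.91, 5.50 and 5.13), and 223747_x_at was highest in EV cells (9.11, 8.38 and 8.87). None of the 5 was called between WWOX and WFPA cells.

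PSG proteins belong to the immunoglobulin superfamily and are relatives of the carcinoembryonic antigen cell adhesion molecules (CEACAM). The syncytiotrophoblast, the outer layer of the placenta, secretes them into the maternal blood, where they are among the most abundant proteins of fetal origin late in pregnancy. They are known to act on immune cells, platelets and blood vessels, and PSG1 and PSG9 are known to activate latent TGF-β1. The genes lie side by side in a cluster on chromosome 19 and are so alike in sequence that a probe of one can bind transcripts of others. A probe set whose name ends in _x_at or _s_at is one that the array's makers marked as sharing sequence, and 16 of the 19 PSG probe sets carry such an ending. The level at a probe set may therefore hold signal of its paralogs.

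How alike the genes are is visible before their starts. RefSeq promoters (GRCh38.p14, 250 bases before to 50 after the start) were in the table used for PSG3, PSG4 and PSG5. Where they aligned, PSG3 and PSG4 were identical at 278 of 295 bases (94.2%), PSG3 and PSG5 at 249 of 263 (94.7%) and PSG4 and PSG5 at 253 of 269 (94.1%), and the rest of the 300 bases of each lay outside the alignment. The longest stretch that all 3 promoters held unbroken was 54 bases. The windows of 30 bases below, written 5′ to 3′ on the strand of the gene, show this likeness at a C-rich box, in capitals, of the kind that SP and KLF transcription factors are known to bind.
PSG3: cctgggcctgaCCCCGCCCatgaacctgag
PSG4: cctgggcctgaCCCCGCCCacgagcttgag
PSG5: cctgggcctgaCCCCACCCatgagcctgag
These lie on the minus strand at chr19:42740514-42740543 (PSG3), chr19:43205666-43205695 (PSG4) and chr19:43186534-43186563 (PSG5). The box ends 44, 39 and 9 bases before the annotated start of PSG3, PSG4 and PSG5, and the last 3 bases of the PSG5 window lie past its start. With positions counted from 1 at the 5′ end of a window, PSG5 differs from PSG3 by G16A and A24G, and PSG4 differs from PSG3 by T21C, A24G and C26T. Position 16 lies in the box, which reads CCCCGCCC in PSG3 and PSG4 and CCCCACCC in PSG5. Searched on both strands, CCCCGCCC was in 22.8% of 35116 RefSeq promoters of the same length and CCCCACCC in 11.1%. A match of such letters is a description of the sequence and not of a bound site.

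In WWOX cells all 19 PSG probe sets had a lower mean than EV and WFPA cells averaged, by 0.37 to 3.17 on the log2 scale with a median of 1.58. For all probe sets the median difference was 0.03. The limits of a call elsewhere in the text are a limma adjusted p under 0.05 and a change of 2-fold or more. For description only, 15 of the 19 lay past them on the lower side, as did 1.77% of all probe sets, and 3 of these lay past 4-fold (0.264% of all). Against EV cells alone 12 lay past them (1.64% of all probe sets), 4 of these past 4-fold (0.287% of all). Against WFPA cells alone 15 did (2.47% of all), 3 of these past 4-fold (0.474% of all). The WWOX arrays lay below all 6 others at 17 of the 19, as they did at 8.87% of all probe sets. These comparisons share the WWOX arrays. The choice of the family fixed such counts in advance, and nothing is read from them. In bulk RNA, fewer cells that express a gene and less of its RNA in each cell cannot be told apart.

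**Figure D1:**
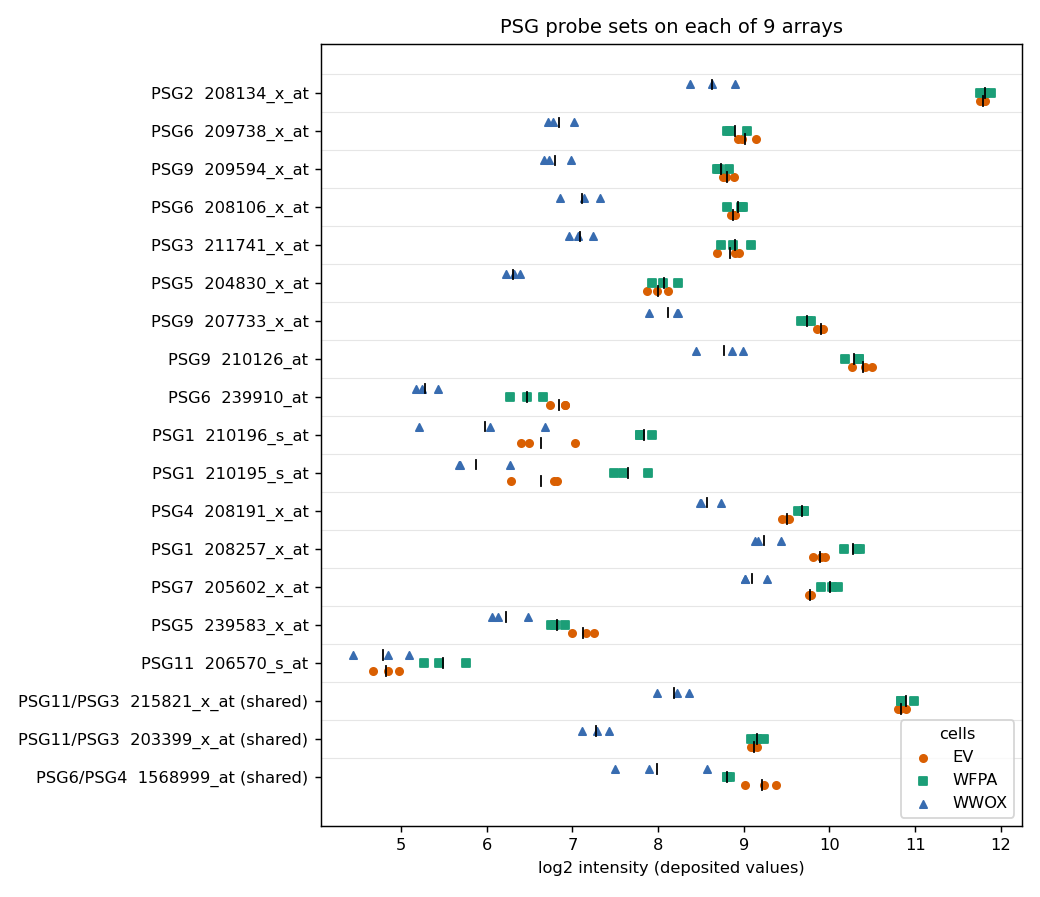
Log2 intensity (x axis) of each PSG probe set (rows) on each of 9 arrays, 1 symbol per array (circle, EV; square, WFPA; triangle, WWOX), with a black bar at the mean of 3 arrays. The WWOX arrays lie left of all 6 others in 17 of 19 rows, the exceptions being PSG1 210196_s_at and PSG11 206570_s_at. Levels of different rows are not comparable, since each probe set binds with its own strength.

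PSG2 had the widest gap of the family. Its probe set, 208134_x_at, read 11.76, 11.80 and 11.81 on the EV arrays, 11.76, 11.81 and 11.88 on the WFPA arrays and 8.90, 8.63 and 8.37 on the WWOX arrays (log2 intensity, replicates 1 to 3). EV and WFPA arrays interleaved, and the WWOX arrays lay below all of them. The WWOX mean was 3.15 under that of EV, 8.91-fold, and 3.19 under that of WFPA, 9.11-fold. Between WFPA and EV cells the difference was 0.03 (standard error 0.127, limma adjusted p = 0.933), with a 95% interval from -0.25 to 0.32.

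PSG3 lies at one end of the cluster, beside the CEACAM genes. At 211741_x_at it read 8.69, 8.90 and 8.95 in EV, 8.74, 9.08 and 8.87 in WFPA and 7.07, 6.96 and 7.24 in WWOX cells. The WWOX arrays did not overlap with the others, and their mean lay 1.78 (standard error 0.107) below the mean of EV and WFPA, 3.43-fold. WFPA and EV cells differed by 0.05 (standard error 0.123, limma adjusted p = 0.881), a value that turned to -0.03 without EV replicate 1 and to -0.04 without WFPA replicate 2. PSG11 and PSG3 share 215821_x_at and 203399_x_at. The first read 10.80, 10.89 and 10.82 in EV, 10.84, 10.83 and 10.99 in WFPA and 8.36, 8.22 and 7.99 in WWOX cells. Its WWOX mean was 2.67 (standard error 0.0942) below that of the others, 6.37-fold, and after PSG2 this was the second widest gap among the 19. At 203399_x_at the gap was 1.86 (standard error 0.0871), 3.63-fold. Which of these genes gave the shared signal cannot be read from the probe sets.

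The PSG11 probe set 206570_s_at behaved differently from both probe sets that PSG11 shares with PSG3. It was dim, at 4.67, 4.98 and 4.85 in EV, 5.44, 5.27 and 5.76 in WFPA and 4.44, 4.85 and 5.09 in WWOX cells, where the lower quartile of an array was between 4.225 and 4.337. WWOX and EV arrays interleaved. Their means differed by -0.04, which became 0.14 without WWOX replicate 1 and -0.18 without WWOX replicate 3. All WFPA arrays lay above both other groups, and WFPA cells were 0.66 higher than EV cells (95% interval 0.25 to 1.07, standard error 0.183), with a limma adjusted p = 0.0709 that missed the threshold.

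PSG6 and PSG9 each had 3 probe sets of their own, and all of these were lower in WWOX cells, though at PSG6 the sizes differed. For PSG6 the WWOX mean lay 1.79, 2.12 and 1.38 below the mean of EV and WFPA at 208106_x_at, 209738_x_at and 239910_at, with standard errors of 0.105, 0.0985 and 0.105. The last of these carries no mark for shared sequence. It read 6.91, 6.74 and 6.91 in EV, 6.27, 6.47 and 6.66 in WFPA and 5.43, 5.18 and 5.24 in WWOX cells, so that the 3 groups were separate, with WWOX lowest and EV highest. Its difference between WFPA and EV cells was -0.39 (95% interval -0.66 to -0.11, limma adjusted p = 0.108) and was not called. For PSG9 the WWOX mean lay 1.70, 1.98 and 1.58 lower at 207733_x_at, 209594_x_at and 210126_at. The probe set 210126_at, again without such a mark, read 10.50, 10.26 and 10.42 in EV, 10.34, 10.35 and 10.18 in WFPA and 8.86, 8.99 and 8.44 in WWOX cells. Here EV and WFPA arrays overlapped and the WWOX arrays lay below both, by 2.98-fold.

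PSG6 and PSG4 share 1568999_at, which was the most uneven of the shared probe sets. It read 9.24, 9.02 and 9.38 in EV, 8.81, 8.84 and 8.80 in WFPA and 8.57, 7.50 and 7.89 in WWOX cells. The WWOX mean lay 1.03 (standard error 0.2) below that of the others, and 0.78 below it without WWOX replicate 2. WFPA arrays were all below EV arrays, by 0.40 (standard error 0.23, limma adjusted p = 0.412), which was not called. PSG4 alone, at 208191_x_at, read 9.45, 9.50 and 9.53 in EV, 9.70, 9.63 and 9.70 in WFPA and 8.73, 8.50 and 8.49 in WWOX cells. The WWOX gap was 1.01 (standard error 0.0795), close to 2-fold.

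PSG5 and PSG7 had smaller or mixed gaps. The PSG5 probe set 204830_x_at read 7.87, 8.12 and 7.99 in EV, 7.93, 8.23 and 8.06 in WFPA and 6.39, 6.32 and 6.23 in WWOX cells, a gap of 1.72 (standard error 0.0934). At 239583_x_at the same gene gave a gap of 0.75 (standard error 0.11), with 7.25, 7.0 and 7.16 in EV, 6.92, 6.80 and 6.75 in WFPA and 6.06, 6.13 and 6.48 in WWOX cells. WWOX arrays were lowest at both, though the sizes disagreed. The PSG7 probe set 205602_x_at read 9.77, 9.76 and 9.79 in EV, 10.03, 9.90 and 10.10 in WFPA and 9.27, 9.02 and 9.01 in WWOX cells. Its WWOX gap of 0.79 (standard error 0.0864) was 1.73-fold, under the limit for a call.

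PSG1, one of the activators of latent TGF-β1, was the gene at which the mutant stood furthest from the empty vector. The probe set 210195_s_at read 6.79, 6.28 and 6.82 in EV, 7.49, 7.88 and 7.59 in WFPA and 6.27, 5.69 and 5.68 in WWOX cells. WFPA arrays lay above all others and WWOX arrays below all others, though WWOX replicate 1 lay only just under EV replicate 2. WFPA cells were 1.02 higher than EV cells (standard error 0.206, 95% interval 0.56 to 1.49), 2.03-fold, with a limma adjusted p = 0.0198. At 210196_s_at the values were 6.40, 7.03 and 6.49 in EV, 7.79, 7.93 and 7.79 in WFPA and 5.21, 6.04 and 6.68 in WWOX cells. WWOX replicate 3 lay within the EV range, and the WWOX SD of 0.739 was the widest of the family. The difference between WFPA and EV cells was 1.20 (standard error 0.322, 95% interval 0.47 to 1.93) and missed the threshold (limma adjusted p = 0.063). The third, 208257_x_at, read 9.81, 9.90 and 9.95 in EV, 10.36, 10.17 and 10.32 in WFPA and 9.44, 9.13 and 9.17 in WWOX cells. Its groups were separate, with WFPA higher than EV by 0.40 (95% interval 0.15 to 0.64, limma adjusted p = 0.069), which was not called.

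Over the whole family, WFPA cells were called higher than EV cells at 1 of 19 probe sets, PSG1 210195_s_at, where 1.26% of all probe sets were called higher, and at none lower. In size 11 of the 19 differences were under 0.2, and their range was -0.40 to 1.20 with a median of 0.05, beside -0.04 over all probe sets. The 95% interval left out 0 at 7 of them. These intervals are not adjusted for the number of probe sets, and their share over all probe sets was not counted, so nothing is read from the 7. With a limma adjusted p under 0.05 and no fold limit there was 1 of 19, beside 6.64% of all probe sets. All WFPA arrays lay above all EV arrays at 6 probe sets and below them at 4, where 13.4% and 15.9% of all probe sets did so. The call at 210195_s_at was lost under a plain one-way model (adjusted p = 0.0725), under quantile normalization, where the change was just under 2-fold, and without EV replicate 2, WFPA replicate 2 or WFPA replicate 3. The call at 210196_s_at was made as well with limma-trend (adjusted p = 0.042) and without WWOX replicate 1 (adjusted p = 0.013) or WWOX replicate 3 (adjusted p = 0.0184), so the count ran from 0 to 2.

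**Figure D2:**
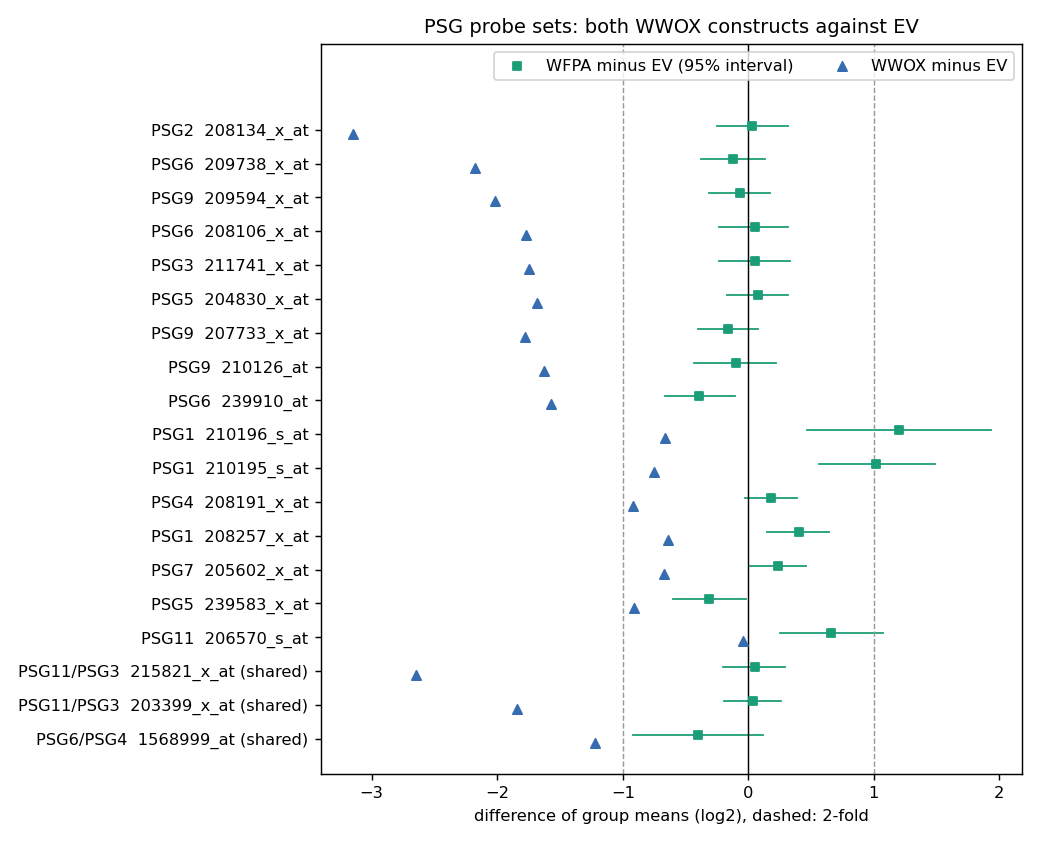
Difference of group means (x axis, log2) of WFPA from EV cells (squares, with the 95% interval from limma) and of WWOX from EV cells (triangles, with no interval because the family was chosen on them) for the 19 PSG probe sets. Squares lie within 0.2 of the zero line in 11 rows and reach 1.02 and 1.20 at PSG1, while triangles run from -0.04 to -3.15. Dashed lines mark 2-fold.

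Among the 171 pairs of the 19 probe sets the Pearson correlation over 9 arrays ran from 0.03 to 1.0 with a median of 0.91, a description that holds the group differences on which the family was chosen and the shared sequence of the probes. Once the group means were taken away the median was 0.26, with a range from -0.91 to 0.95. PSG11 206570_s_at was the least like the rest, with a correlation of 0.52 with the family average. Averaged over the probe sets of 1 gene, each set to a mean of 0 over the arrays, the family stood at 0.38 to 0.42 in EV, 0.53 to 0.61 in WFPA and -0.93, -1.05 and -0.96 in WWOX cells. The WFPA arrays were thus all a little above the EV arrays on this average. That offset came from PSG1, with probe sets 0.40 to 1.20 above EV cells, and PSG11, at 0.66. At the other genes' own probe sets WFPA differed from EV cells by -0.39 to 0.24.

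The cluster was then read along the chromosome. In RefSeq order the members run PSG3, PSG1, PSG6, PSG7, PSG11, PSG2, PSG5, PSG4 and PSG9. PSG8 and PSG10P, which lie among them, had no probe set of 1 gene. Of the nearest 20 genes with a probe set, 10 on each side, none was called in WWOX cells against the others, where 4.01% of 19775 genes were called with 1 probe set a gene. Without the fold limit 4 of the 20 had an adjusted p under 0.05, 3 of them higher in WWOX cells. Of all probe sets 16.3% passed that limit, 6.88% of all being higher in WWOX cells. The 4 are near the first share, while the 3 are above the second. These shares are over all probe sets and not over 1 a gene, and with so few neighbours nothing is read from the 3. The differences of these neighbours ran from -0.34 to 0.70 with a median of 0.05, beside a median of 0.04 for all genes. CEACAM1, an adhesion receptor and close neighbour before PSG3, was 0.61 higher in WWOX cells (standard error 0.154, limma adjusted p = 0.0267), which is under 2-fold. Between WFPA and EV cells 1 neighbour was called (2.23% of all genes). This was PINLYP, an inhibitor of phospholipase A, which rose by 1.24 in WFPA cells (standard error 0.234, limma adjusted p = 0.0146).

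**Figure D3:**
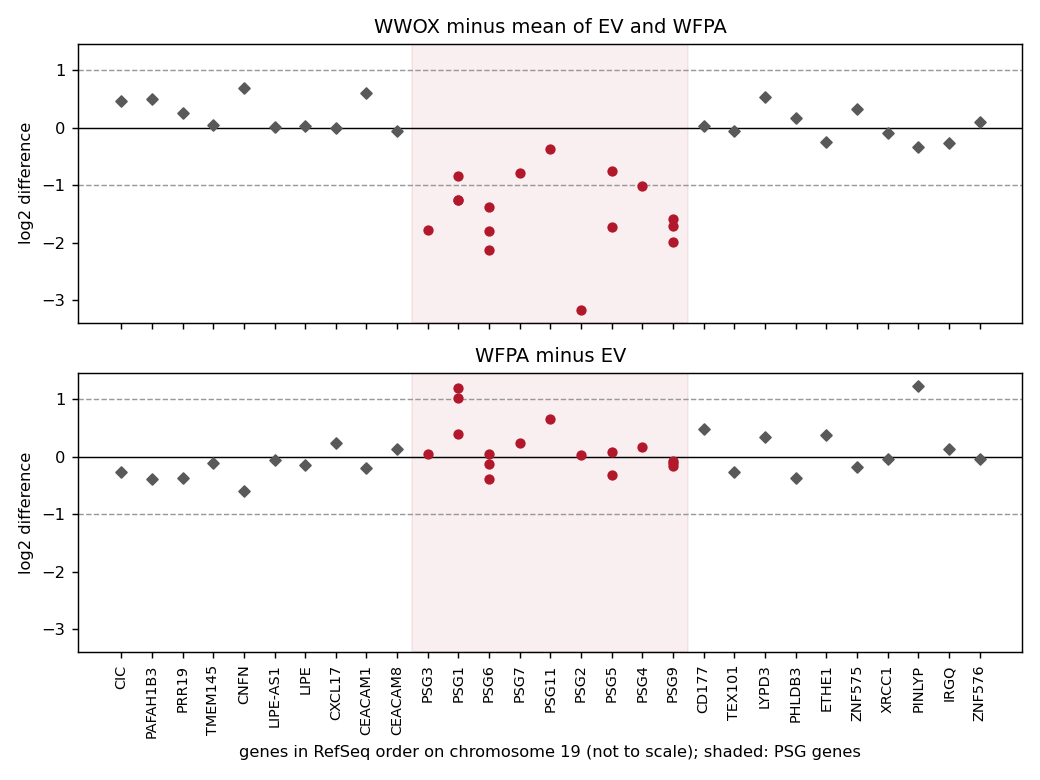
Log2 difference (y axis) of WWOX from the mean of EV and WFPA cells (upper panel) and of WFPA from EV cells (lower panel) for genes in RefSeq order on chromosome 19 (x axis, not to scale). Circles are PSG probe sets of 1 gene in the shaded cluster, and diamonds are the 10 nearest genes with a probe set on each side, which lie between -0.34 and 0.70 in the upper panel.

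Genes related to the PSG family by descent, by tissue or by function were read from lists, with 1 probe set a gene. Since earlier results of these data were known when the lists were chosen, the called shares here and below describe the lists and do not test them. The CEACAM genes share ancestry and chromosome with the PSG genes. Of 12, 9 were measured and none was called in either comparison, beside 4.01% and 2.23% of all genes. With so few genes, none called is near those shares. The medians were 0.05 for WWOX against the mean of EV and WFPA and -0.13 for WFPA against EV. In 4 of the 9 the EV mean was under the lower quartile of the arrays.

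Of 47 genes typical of trophoblast, the cells that make PSG in the placenta, 41 were measured. In WWOX cells 4 of them fell and none rose (9.76% called, beside 4.01% of all genes), and the median of the list was 0.10. CGA, the α subunit of chorionic gonadotropin, fell by 2.34 (standard error 0.26, limma adjusted p = 3.99e-04). It read 7.29, 6.38 and 7.63 in EV, 6.15, 6.07 and 6.29 in WFPA and 3.87, 4.49 and 4.54 in WWOX cells, with the WWOX arrays below all others and close to the lower quartile, where the size of a change is uncertain. A second, dim CGA probe set (233615_at) differed by 0.13 and was not called. PLAC1, a membrane protein of the placenta, fell by 1.62 (standard error 0.0881, limma adjusted p = 4.66e-06), and PAGE4, a cancer/testis antigen also made in placenta, fell by 1.61 (standard error 0.197, limma adjusted p = 6.82e-04). GATA3, a transcription factor of trophoblast and other epithelia, fell by 1.13 (standard error 0.0863, limma adjusted p = 3.87e-05), with EV arrays at a mean of 7.10, WFPA arrays at 8.69 and WWOX arrays at 6.76. In WFPA cells GATA3 rose by 1.60 over EV cells (standard error 0.0996), the one call of the list in that comparison (2.44%, beside 2.23% of all genes). Both further GATA3 probe sets were called the same way in each comparison. WWOX and EV cells differed by -0.33 at the probe set read (not called), by -0.65 at 209602_s_at (not called) and by -1.11 at 209604_s_at (limma adjusted p = 0.00623).
Uncalled, but with an adjusted p under 0.05 at less than 2-fold, were PHLDA2 (0.83), PEG10 (0.81), XAGE2 (0.65) and TFAP2C (0.64), with higher values in WWOX cells, and KISS1 (-0.57), with lower ones.
Other genes known from the syncytiotrophoblast, described for their role, did not pass the test. GCM1, which drives its formation, averaged 3.43 on the EV arrays and 3.45 on both the WFPA and the WWOX arrays, under the lower quartile. ERVW-1, the fusogen syncytin, differed by 0.10 and CSH1, placental lactogen, by 0.25. Averaged over the 41 genes an array stood between 6.36 and 6.40 in EV, 6.38 and 6.43 in WFPA and 6.30 and 6.41 in WWOX cells, and 9 of the 41 were under the lower quartile in EV cells.

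**Figure D4:**
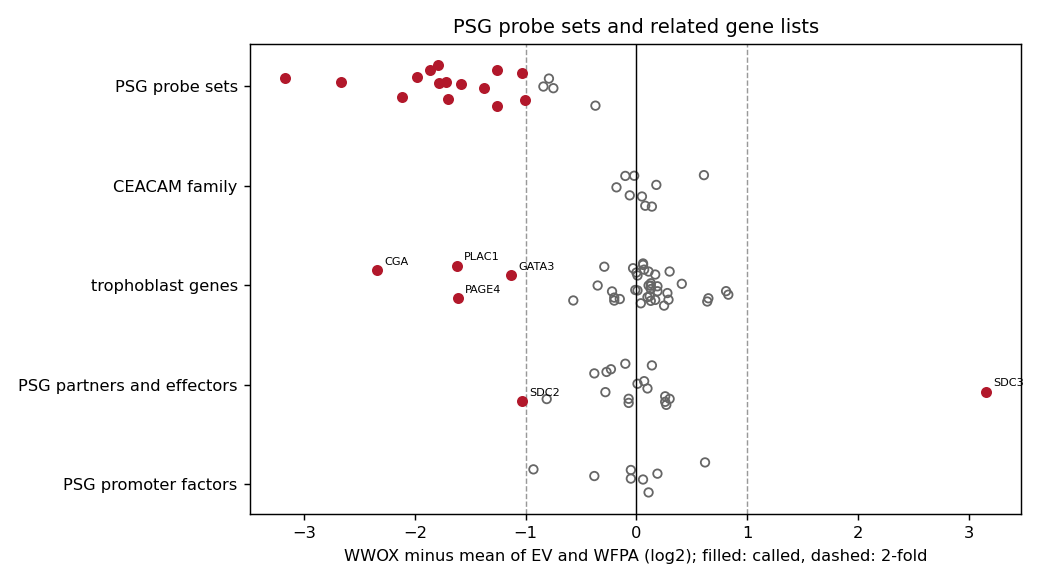
Log2 difference of WWOX from the mean of EV and WFPA cells (x axis) for the PSG family and 4 related lists (rows). Points are the 19 PSG probe sets or, in the lists, 1 per gene, spread vertically for legibility. They are filled where past the limits of a call. In the PSG row the fill is a description without a test, because the family was chosen on this difference. Dashed lines mark 2-fold. The 4 called trophoblast genes lie at -1.13 to -2.34 and the other genes of that list between -0.57 and 0.83. SDC3 at 3.16 is the one call to the right.

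Partners and effectors of PSG proteins were taken next. PSG proteins bind cell surface heparan sulphate, integrins and, for mouse family members, the tetraspanin CD9. All 18 listed genes were measured, and in WWOX cells 1 rose and 1 fell (11.1% called, beside 4.01% of all genes), with a median of -0.03. SDC3, a heparan sulphate proteoglycan, rose by 3.16 (standard error 0.213, limma adjusted p = 1.73e-05), from 5.54, 5.86 and 5.58 in EV and 5.49, 5.50 and 5.91 in WFPA to 8.27, 8.80 and 9.34 in WWOX cells, though its dimmer probe set 1554864_a_at differed by 0.22 and was not called. SDC2, of the same group, fell by 1.03 (standard error 0.258, limma adjusted p = 0.0258). Its WWOX replicate 3 lay at 6.34 beside 7.72 and 7.45, and the call was lost without that array, without EV replicate 1 or 2 or WFPA replicate 2 or 3, and under quantile normalization. A further SDC2 probe set (212154_at) differed by -0.98, just under 2-fold, and another (212157_at) by -0.32, with a limma adjusted p = 0.144. Neither the integrin subunits ITGA5 (-0.23) and ITGB1 (0.01), nor CD9 (0.27), nor TGFB1 (0.10), the cytokine that PSG1 and PSG9 activate, was called. VEGFA, which PSG proteins are known to induce in other cells, rose in WFPA over EV cells by 1.22 (standard error 0.106, limma adjusted p = 2.62e-04) as the one call of that comparison (5.56%, beside 2.23% of all genes). Its further probe sets rose by 1.14 at 212171_x_at, which was called, and by 0.89 at 211527_x_at and 0.57 at 210513_s_at, which were under 2-fold and not called.

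Of 8 factors tied to PSG promoters, all measured, none was called in either comparison, beside 4.01% and 2.23% of all genes. For so short a list this is near those shares. The median difference of WWOX cells was 0.00. RXRA, a nuclear receptor partner, was 0.62 higher in WWOX cells (standard error 0.0752, limma adjusted p = 6.42e-04), under 2-fold. SP1, which binds C-rich boxes of the kind printed above, differed by -0.93 (standard error 0.371, limma adjusted p = 0.125). Its WWOX arrays were spread from 6.66 to 8.76, and the lowest was replicate 3. KLF4 differed by -0.38 (standard error 0.126, limma adjusted p = 0.0724), KLF6 by 0.11 and GABPA by -0.05.

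Some markers of the labelled cell type and of other cell types differed between the groups, and their part in the PSG levels was not tested. Of 17 melanocytic markers 15 were measured, and 4 rose in WWOX cells (26.7%, beside 4.01% of all genes): S100B by 6.30, SOX10 by 5.43, S100A1 by 2.84 and MITF by 1.80 (limma adjusted p between 3.87e-08 and 2.43e-06). Averaged over the 15 an array stood between 7.06 and 7.09 in EV, 7.07 and 7.16 in WFPA and 8.24 and 8.35 in WWOX cells, and TYRP1 was under the lower quartile in every group. The median change of the 15 in WWOX cells was 0.31, so the rise of the average came mostly from the 4 called genes. Of 13 epithelial markers measured, ESRP1 rose by 4.86 in WWOX cells while KRT18 fell by 1.52, KRT8 by 1.09 and CDH1 by 1.68. These 4 were called by limma (30.8%, beside 4.01% of all genes). For CDH1 the WFPA cells stood apart, at 7.78 beside 4.67 in EV and 4.54 in WWOX cells, a rise that was the one call of the list between WFPA and EV cells (7.69%, beside 2.23% of all genes), and a second probe set (201130_s_at) was not called. An array averaged 6.84 to 7.04 in EV, 7.11 to 7.21 in WFPA and 7.04 to 7.11 in WWOX cells over these 13. Of 11 haematopoietic markers measured 1 was called in each comparison (9.09%, beside 4.01% and 2.23% of all genes). This was PTPRC, the leukocyte phosphatase CD45, which fell by 3.29 in WWOX cells and by 2.21 in WFPA against EV cells. The list averaged 5.48 to 5.54, 5.27 to 5.35 and 5.18 to 5.26 in EV, WFPA and WWOX cells. Its median change was 0.05 in WWOX cells and 0.01 in WFPA against EV cells, so these averages mostly follow PTPRC.

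The genes outside the family whose profile over the 9 arrays was most like the PSG average were named last. Among 767 genes with a range of at least 2 on the log2 scale, 108 had a Pearson correlation above 0.9 with it. A like profile was thus common among these genes, and its share over all genes was not counted. The closest were LAMB3, a laminin chain (r = 0.997), C1orf94 (0.996), AOX1, an aldehyde oxidase (0.996), TMEM40 (0.995), ZNF662 (0.995) and RGS7, a regulator of G protein signalling (0.993). All 6 were lower in WWOX cells, by 1.92 for RGS7 to 3.69 for ZNF662, which follows from the measure of likeness.

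**Figure D5:**
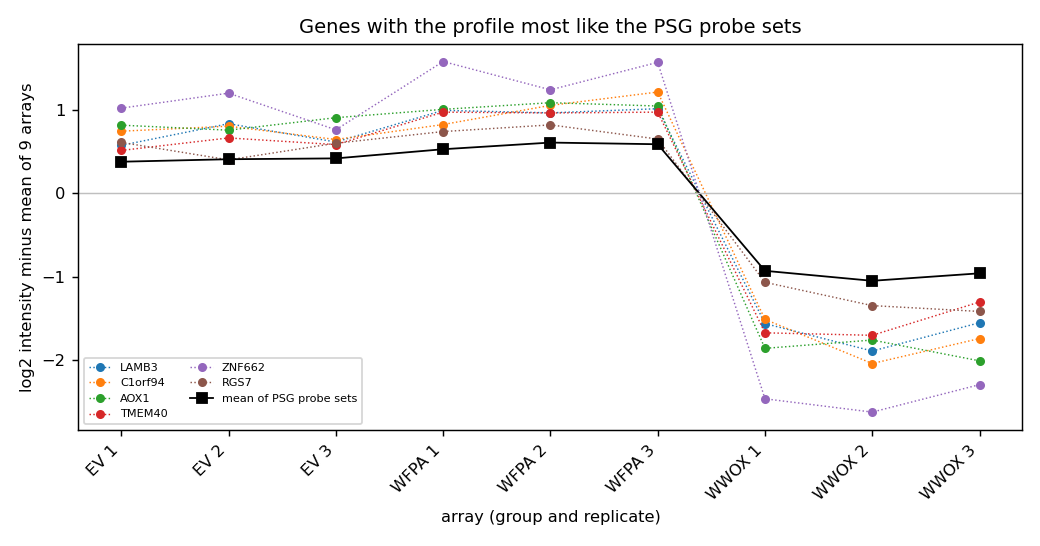
Log2 intensity less the mean of 9 arrays (y axis) on each array (x axis, group and replicate) for the 6 genes with the highest correlation with the PSG average, beside that average (black squares). Lines join points of 1 gene for legibility. The average stands at 0.38 to 0.61 in EV and WFPA cells and at -0.93 to -1.05 in WWOX cells.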

How the data were processed

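The deposited values are log2 intensities of 9 Affymetrix arrays on 1 scale, which the authors calibrated and normalized in Partek Genomics Suite 6.5. The background and normalization method is not given in the sources used here, and nothing further was applied. Of 54675 probe sets, 62 array controls were left out. The platform annotation gave 1 gene to 41091 of the rest, several to 1801 and none to 11721. A gene outside the PSG family was read at its brightest probe set of 1 gene over all arrays.

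A mean per group was fitted with limma 3.58.1 in R 4.3.3 to all 9 arrays (6 residual and 3.038 prior degrees of freedom). Adjusted p-values are Benjamini-Hochberg over all 54613 probe sets, and a call also needs the group means to differ 2-fold, with the adjusted p below 0.05. The methods of the study set 4-fold with Bonferroni adjustment, which were run as alternatives. Array medians lay between 6.026 and 6.046, and arrays of 1 group correlated at 0.9875 to 0.9959. Precision is limited by the number of arrays. The fit was tested on simulated data.

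The PSG members and all gene lists were chosen with earlier results of these data known. Named were every PSG probe set, WWOX, called genes of each list (at most 6), genes of known role and the 6 genes most like the family. Alternatives were other variance models, adjustments, fold limits, filters on dim probe sets, centring, quantile normalization, the replicate number as a block, the compared groups alone, all probe sets of a gene averaged, and each array left out. Promoters came from a RefSeq table and were aligned with Biopython 1.88. Figures used matplotlib 3.10.9. Probe and protein sequences were not used here.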

Additional observations from a re-analysis of the deposited data

How the results depend on the processing

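PSG counts in the WWOX comparisons moved by over 1.5 times only at the 4-fold limit, which left 3 of 15 against the mean of EV and WFPA, 4 of 12 against EV and 3 of 15 against WFPA. With each array left out these counts ran from 13 to 15, 11 to 14 and 14 to 16. The choice of the family fixed these counts in advance, so their steadiness is a description and no support for a difference. The single PSG call of WFPA against EV became 0 under a plain one-way model, Bonferroni adjustment, 4-fold and quantile normalization, and 2 under limma-trend, a mean above the median and a fit of only the groups compared. It ran from 0 to 2 with each array left out (0 without EV replicate 2, WFPA replicate 2 or 3, and 2 without WWOX replicate 1 or 3). The PSG3 difference of WFPA from EV, 0.05, was -0.03 without EV replicate 1 and -0.04 without WFPA replicate 2, the lowest of a range up to 0.13 with each array left out, and no other PSG direction that was called or tested turned.

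Bonferroni adjustment left 603 of 1766 calls for WWOX and 204 of 946 for WFPA against EV, no fold limit gave 8922 and 3627, and 4-fold left 412 and 183. With each array left out they ran from 1682 to 2212 and from 817 to 974. At 223868_s_at the WWOX transcript lost its calls under Bonferroni adjustment (changes of 1.72 and 1.30, with limma adjusted p = 0.213 and 1) and 4-fold. Its change there ran from 1.62 to 1.88 over EV in WWOX cells and 1.20 to 1.46 in WFPA cells without single arrays. The calls at 223868_s_at are lost by construction, since the limits are stricter. At 221147_x_at both comparisons with EV passed each of these limits, at 12.8-fold in WWOX cells and 8.84-fold in WFPA cells.

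In the lists for WWOX cells, Bonferroni left 2 trophoblast genes, 1 partner and 2 epithelial markers, and 4-fold left 1 of each. No fold limit gave 1 CEACAM gene, 9 trophoblast genes, 5 partners, 1 promoter factor, 7 melanocytic markers, 2 haematopoietic markers and 4 neighbours, beside 16.3% of all probe sets. Partners fell to 1 under the plain model, quantile normalization and the mean of all probe sets, and ran from 1 to 2 without single arrays (1 without EV replicate 1 or 2, WFPA replicate 2 or 3, or WWOX replicate 3). Promoter factors ran from 0 to 1 (1 without WWOX replicate 1). A mean above the median left 2 epithelial markers, with 6 of 13 genes tested. For WFPA against EV, Bonferroni left 0 partners, haematopoietic markers and neighbours, 4-fold 0 trophoblast genes, partners and neighbours, the plain model 0 neighbours, a mean above the median 0 epithelial markers, and the mean of all probe sets 0 partners and 1 melanocytic marker. No fold limit gave 4 trophoblast genes, 4 partners, 1 promoter factor and 3 melanocytic markers, beside 6.64% of all probe sets. Without single arrays neighbours ran from 0 to 1 (0 without EV replicate 1 or 3, or WFPA replicate 1), trophoblast genes from 1 to 2 (2 without EV replicate 2) and melanocytic markers from 0 to 1 (1 without WFPA replicate 3). Causes were not tested beyond the limits' own construction.

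Replicate numbers did not pair the samples: deviations from group means of same-numbered arrays correlated at -0.052 to 0.035, and of other pairs at -0.089 to 0.085. With the number as a block the PSG counts stayed at 15, 12, 15 and 1, and all calls were 1753 for WWOX and 906 for WFPA against EV. Levels under the lower quartile of an array bound the size of a change, which for the PSG family touches the PSG11 probe set 206570_s_at most closely.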
